A study of Mus musculus with 14 samples.

Results

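The 10 genes described here, Mrc1, Cd163, Lyve1, Pf4, F13a1, Ms4a7, Cbr2, Stab1, Folr2 and Retnla, are commonly used mouse markers of border-associated macrophages. They were chosen by name from the deposited expression table of 41739 genes, and all 10 were found by gene symbol. All 10 passed the filter on low values (1 TPM or more in 3 or more libraries), as did 18724 genes in all. TPM divides the reads of a gene by its length and scales each library to the same total.

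RNA was sequenced from brain cells purified with magnetic beads and labelled microglia. All mice carried floxed Rheb alleles, and the GTPase that Rheb encodes switches on mTORC1, a kinase complex that drives cell growth. KO mice (Rheb F/F; Tmem119-cre ER) also carried a tamoxifen-inducible Cre, and WT mice (Rheb F/F) carried none, so that effects of the Cre allele and of Rheb loss cannot be told apart. Tmem119 is a microglial gene that is generally regarded as low in border macrophages, which limits the KO as a model for border macrophages. Mice described as 8 weeks old after tamoxifen received an intraperitoneal injection on each of 4 days, either of LPS (bacterial endotoxin) at 1.0 mg/kg or of PBS. The groups were 4 KO LPS, 4 WT LPS, 3 KO PBS and 3 WT PBS libraries, 14 in all. Separate animals for the libraries of a group are not stated in the labels, and p-values therefore cover the spread between libraries and no more.

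Border-associated macrophages lie in the meninges, around blood vessels and in the choroid plexus, outside the brain tissue that microglia occupy. They take up material from blood and cerebrospinal fluid, and several of the genes above encode receptors for that work. They are myeloid cells like microglia, and purification with beads can carry them along. Retnla encodes RELM-alpha, a small secreted protein that macrophages make in response to IL-4 and IL-13 through the transcription factor STAT6.

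Libraries held an estimated 7.991 M to 32.282 M reads (M for mega), the lowest in KO LPS library 4 and the highest in WT LPS library 1. Rheb averaged 22.7 ± 2.43 TPM in KO LPS and 30.8 ± 3.83 TPM in WT LPS libraries (SD, n = 4 each), and 18.2 ± 1.43 TPM in KO PBS and 32.1 ± 2.39 TPM in WT PBS libraries (SD, n = 3 each). It fell under PBS (limma, adjusted p = 0.0163) and missed the threshold under LPS (limma, adjusted p = 0.11). The 12 microglial markers summed to 12980 to 35160 TPM across the libraries, and the 10 border macrophage markers to 882.4 to 1854 TPM. Treatment ran together with 2 other differences between the libraries. Xist, the RNA of the inactive X chromosome, lay at 255 to 574 TPM in the LPS libraries and at no more than 0.147 TPM in the PBS libraries, while the Y-linked Ddx3y lay at no more than 0.27 TPM under LPS and at 111 to 146 TPM under PBS. The study's text describes all mice as female. The gene model Gm23935 took 40400 to 154000 TPM in the LPS libraries and 566 to 2480 TPM in the PBS libraries. LPS, sex transcripts and Gm23935 cannot be told apart in these groups. Growth hormone RNA (Gh), a pituitary transcript, reached 78100 TPM in library WT914 and 19700 TPM in KO LPS library 3, while no other library exceeded 1.9 TPM.

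The promoter sequences of the 3 genes that passed the test for LPS against PBS, Retnla, Ms4a7 and Stab1, are shown because these genes moved in different directions. Each is 300 bases long, from 250 before to 50 after the start of the transcript, taken from RefSeq on the mouse build GRCm38.p6 and read 5′ to 3′ along the gene's strand. The Retnla window is chr16:48842359-48842658 on the plus strand, the Ms4a7 window is chr19:11336097-11336396 on the minus strand, the first of 2 starts listed, and the Stab1 window is chr14:31168592-31168891 on the minus strand. Capitals mark matches to 5 short motifs searched on both strands.
Retnla: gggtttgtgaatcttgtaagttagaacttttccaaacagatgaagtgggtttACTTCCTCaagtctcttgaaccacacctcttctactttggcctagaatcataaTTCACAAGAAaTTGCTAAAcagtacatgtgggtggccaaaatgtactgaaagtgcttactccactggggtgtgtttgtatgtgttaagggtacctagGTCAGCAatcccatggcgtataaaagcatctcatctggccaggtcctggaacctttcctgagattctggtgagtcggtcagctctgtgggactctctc
Ms4a7: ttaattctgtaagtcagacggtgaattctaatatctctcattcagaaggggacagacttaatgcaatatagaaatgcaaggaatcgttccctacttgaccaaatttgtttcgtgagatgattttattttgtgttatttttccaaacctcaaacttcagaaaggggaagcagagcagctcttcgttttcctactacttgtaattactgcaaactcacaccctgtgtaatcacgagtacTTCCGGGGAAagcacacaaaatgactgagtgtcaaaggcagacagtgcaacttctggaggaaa
Stab1: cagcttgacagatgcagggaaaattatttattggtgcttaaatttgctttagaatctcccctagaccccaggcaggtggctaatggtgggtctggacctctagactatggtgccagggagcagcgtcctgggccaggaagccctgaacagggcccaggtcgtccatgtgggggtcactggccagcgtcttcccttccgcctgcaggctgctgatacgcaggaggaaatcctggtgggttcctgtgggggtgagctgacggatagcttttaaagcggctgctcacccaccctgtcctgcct
The motifs were STAT6 (TTC and GAA with 4 bases between), PU.1 (GAGGAAGT), a MAF half-site (TGCTGAC), C/EBP (TTGCNNAA) and NF-kB (GGG, 2 bases, TT, 1 base, CC). PU.1 and MAF proteins are macrophage transcription factors, C/EBP factors act in myeloid genes, and NF-kB is activated by LPS.

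Counted from the transcript start, the Retnla window held 4 matches: PU.1 on the opposite strand at -198 (ACTTCCTC), STAT6 at -145 (TTCACAAGAA), C/EBP at -134 (TTGCTAAA) and the MAF half-site on the opposite strand at -48 (GTCAGCA). The STAT6 and C/EBP matches stood 1 base apart, with no overlap. The Ms4a7 window held 1 match, STAT6 at -13 (TTCCGGGGAA), and the Stab1 window held none. Of 32841 promoter windows of this length, 6.95% held the STAT6 letters, 3.2% PU.1, 4.67% the MAF half-site, 10.8% C/EBP and 4.8% NF-kB. Among the other members, Pf4 had PU.1 at -10 and C/EBP at -212, Cbr2 had STAT6 at 25 and the MAF half-site at 41, and 1 of 2 F13a1 windows had PU.1 at 15. The windows of Mrc1, Cd163 and Folr2 held no match, and no NF-kB match was found in the 12 windows of the 9 members with an entry. Lyve1 was not matched. A match is a run of letters and was not tested as a binding site.

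The first comparison asked how the markers differed between LPS and PBS. Retnla was nearly lost from the LPS libraries of both genotypes, Stab1 was lower and Ms4a7 higher, and the other 7 markers did not pass the test in either genotype. In KO libraries 3 of 10 markers passed (1 higher, 2 lower), against 34.7% of all tested genes, and in WT libraries the same 3 genes passed, against 42.0% of all tested genes. The median log2 fold change over the 10 markers was -0.45 in KO and -0.33 in WT, beside medians over all tested genes of -0.22 in KO and -0.28 in WT. By direction, the test called 7.82% of all genes higher and 26.9% lower in KO, and 7.95% higher and 34.1% lower in WT. With the TPM rescaled by medians of ratios, the median over all genes was 0.0 in KO and 0.01 in WT, and 2331 genes were higher and 1920 lower by the test in KO, against 1465 and 5029 on the deposited scale. In WT the same scaling gave 3023 higher and 2466 lower, against 1488 and 6378. Bulk RNA does not tell fewer cells of a type from less RNA per cell.

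**Figure D1:**
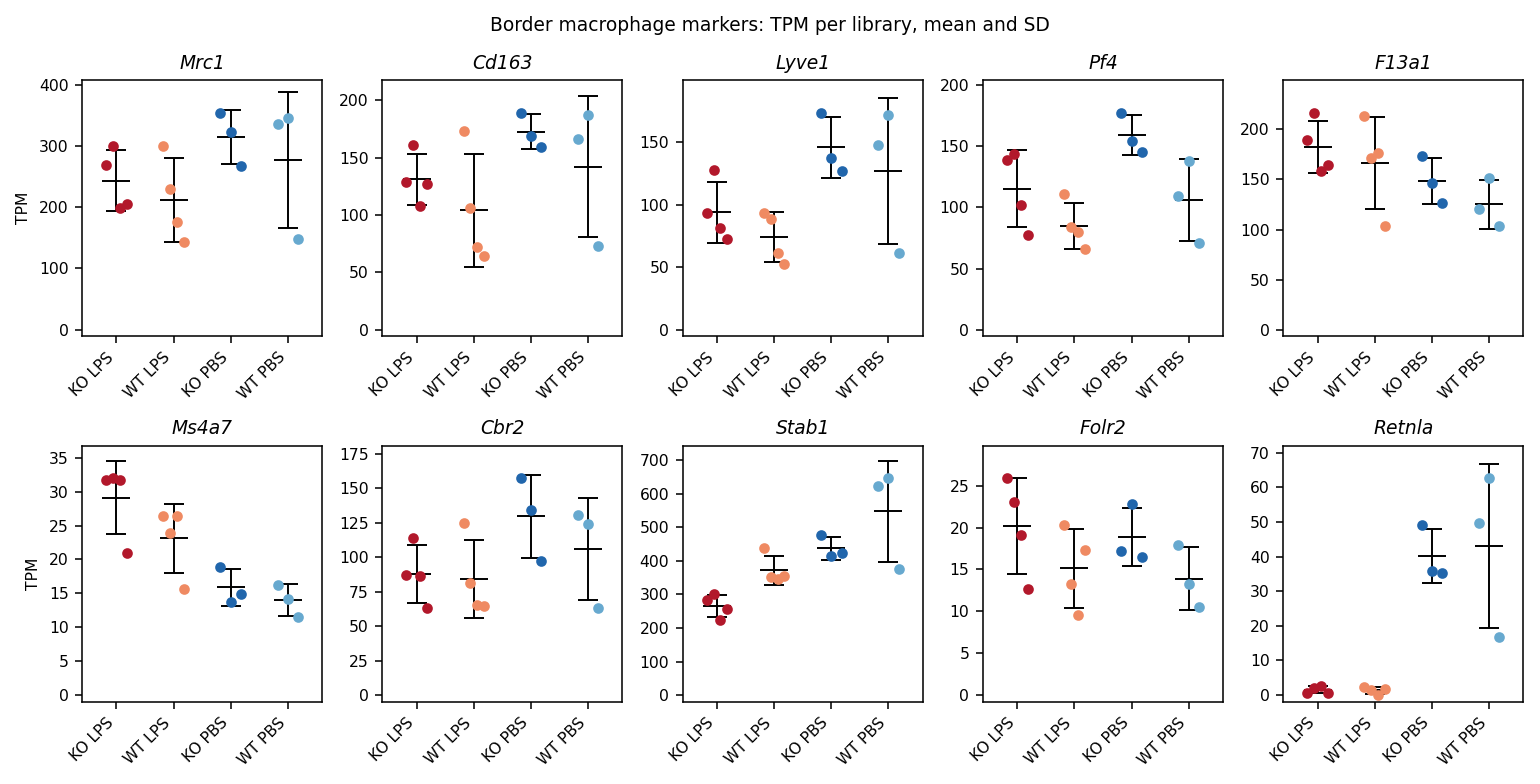
TPM of each of the 10 markers (vertical axes, linear, each gene on its own range) in the 4 groups (horizontal axes), with a point per library and black bars for the mean and SD. All 8 LPS libraries lie at no more than 2.713 TPM for Retnla, and all 6 PBS libraries at 16.8 TPM or more.

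Retnla had 0.6616, 1.94, 2.713 and 0.6939 TPM in the KO LPS libraries 1 to 4, and 49.26, 35.85 and 35.39 TPM in the KO PBS libraries, labelled KO911, KO912 and KO915. It had 2.227, 1.434, 0 and 1.821 TPM in the WT LPS libraries 1 to 4, and 49.58, 62.64 and 16.8 TPM in the WT PBS libraries, labelled WT904, WT913 and WT914. No LPS library came near any PBS library, and the lowest PBS value, in WT914, still lay far above the highest LPS value. The reads behind these values were 1 to 11 per library in KO LPS, 0 to 13 in WT LPS, 93 to 144 in KO PBS and 53 to 158 in WT PBS. The 0 in WT LPS library 3 allows up to 0.659 TPM, the worth of 3 reads there, counting error only. The mean under LPS was 3.74% of that under PBS in KO and 3.19% in WT. The log2 fold change was -4.11 ± 0.48 (SE; limma, adjusted p = 5.96e-05) in KO and -4.15 ± 0.48 (SE; limma, adjusted p = 7.64e-05) in WT. An exact permutation test of TPM gave p = 0.057 in each genotype, the smallest that 4 against 3 libraries can give. Such a fall without overlap was found in 31.3% of tested genes in KO and 37.4% in WT.

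Ms4a7, which encodes a membrane protein with several membrane-spanning stretches, moved the other way. It had 31.7, 32.0, 31.8 and 21.0 TPM in KO LPS libraries, against 19.0, 13.8 and 14.9 TPM in KO PBS libraries. In WT it had 26.4, 24.0, 26.4 and 15.7 TPM under LPS, against 16.2, 14.2 and 11.5 TPM under PBS. All KO LPS libraries were above all KO PBS libraries, while in WT the lowest LPS library overlapped the PBS range. The rise was 0.83 ± 0.20 on the log2 scale (SE; limma, adjusted p = 0.00695) in KO and 0.67 ± 0.20 (SE; limma, adjusted p = 0.0178) in WT. A rise without overlap was found in 9.52% of tested genes in KO. Without library WT914 the WT difference was 0.55 (limma, adjusted p = 0.0711) and no longer passed.

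Stab1, the gene of the scavenger receptor stabilin-1, was the most abundant marker by mean TPM in all 4 groups, although its range overlapped that of Mrc1 in KO LPS libraries. It had 282.7, 300.5, 224.7 and 255.6 TPM in KO LPS libraries, against 475.3, 413.1 and 421.8 TPM in KO PBS libraries. In WT it had 436.4, 352.3, 344.6 and 353.2 TPM under LPS, against 622.0, 645.6 and 374.8 TPM under PBS. All KO LPS libraries were below all KO PBS libraries, as for 31.3% of tested genes, while WT LPS library 1 lay above library WT914. Stab1 fell by 0.72 ± 0.17 on the log2 scale (SE; limma, adjusted p = 0.00573) in KO and by 0.52 ± 0.17 (SE; limma, adjusted p = 0.0254) in WT. The call ended in both genotypes under median-of-ratios scaling, at -0.45 (limma, adjusted p = 0.0724) in KO and -0.19 (limma, adjusted p = 0.44) in WT. In WT it also ended with Gm23935 removed, at -0.41 (limma, adjusted p = 0.0737), with the WT libraries fitted alone, at -0.52 (limma, adjusted p = 0.0668), and in the voom fit on recovered reads, at -0.36 (limma's voom, adjusted p = 0.0712). The WT call ended as well without WT904, WT913 or WT LPS library 2, 3 or 4, at -0.38 to -0.50 (limma, adjusted p = 0.0533 to 0.122).

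The scavenger and uptake receptors Mrc1 (the mannose receptor CD206), Cd163 (which takes up haemoglobin bound to haptoglobin) and Lyve1 (a hyaluronan receptor) had means below those of PBS in both genotypes and did not pass. Mrc1 averaged 242.9 ± 49.64 TPM in KO LPS and 314.7 ± 43.76 TPM in KO PBS libraries (SD, n = 4 and n = 3), and 211.8 ± 69.11 TPM in WT LPS and 276.3 ± 111.1 TPM in WT PBS libraries (SD, n = 4 and n = 3). Lyve1 had 93.5, 128.1, 81.2 and 72.8 TPM in KO LPS, against 173.5, 137.3 and 126.8 TPM in KO PBS libraries. It had 93.4, 88.9, 61.3 and 52.8 TPM in WT LPS, against 147.7, 171.8 and 61.1 TPM in WT PBS libraries. In KO the highest LPS library lay just above the lowest PBS library, and in WT a single PBS library, WT914, lay among the LPS values. Its log2 difference was -0.65 ± 0.32 in KO (SE; limma, adjusted p = 0.134) and -0.68 ± 0.32 in WT (SE; limma, adjusted p = 0.105).

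The WT calls of these 3 genes turned on library WT914. That library was the richest in pituitary RNA, and its 10 neutrophil genes summed to 23500 TPM, against 5625 and 7718 TPM in libraries WT904 and WT913. Without it the WT differences were -0.74 for Mrc1 (limma, adjusted p = 0.0379), -0.87 for Cd163 (limma, adjusted p = 0.0398) and -1.13 for Lyve1 (limma, adjusted p = 0.00471), and the 5 markers called lower in WT were these, Stab1 and Retnla. In KO, where that library enters only through the shared estimate of spread, Lyve1 then passed at -0.65 (limma, adjusted p = 0.0388), while Mrc1 at -0.38 (limma, adjusted p = 0.206) and Cd163 at -0.40 (limma, adjusted p = 0.266) did not. With the KO libraries fitted alone, Cd163 (-0.40; limma, adjusted p = 0.0478) and Lyve1 (-0.65; limma, adjusted p = 0.0347) passed as well. The part of pituitary or neutrophil RNA in the WT914 values was not tested. Folr2, a folate receptor gene, was close to level in both genotypes, at 0.06 ± 0.27 in KO (SE; limma, adjusted p = 0.886) and 0.10 ± 0.27 in WT (SE; limma, adjusted p = 0.801).

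Of the secreted products and the enzyme, F13a1, Pf4 and Cbr2, none passed in either genotype. F13a1, the gene of the catalytic subunit of a coagulation transglutaminase, had 189.3, 216.5, 158.8 and 164.8 TPM in KO LPS libraries, against 172.9, 146.2 and 126.5 TPM in KO PBS libraries. In WT it had 213.5, 171.2, 176.5 and 103.8 TPM under LPS, against 120.5, 151.6 and 103.1 TPM under PBS. The ranges overlapped in both genotypes, with 3 of 4 WT LPS libraries above every WT PBS library. Its differences of 0.29 ± 0.21 in KO (SE; limma, adjusted p = 0.311) and 0.38 ± 0.21 in WT (SE; limma, adjusted p = 0.17) did not pass, although the WT one did under median-of-ratios scaling, at 0.72 (limma, adjusted p = 0.0214). It also passed in the voom fit on recovered reads, at 0.55 (limma's voom, adjusted p = 0.0356), and without WT LPS library 4, at 0.59 (limma, adjusted p = 0.016). The chemokine gene Pf4 and the carbonyl reductase gene Cbr2 had negative, uncalled differences, -0.50 and -0.56 in KO and -0.29 and -0.32 in WT on the log2 scale. In WT both had a positive sign under median-of-ratios scaling, 0.05 for Pf4 and 0.02 for Cbr2.

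**Figure D2:**
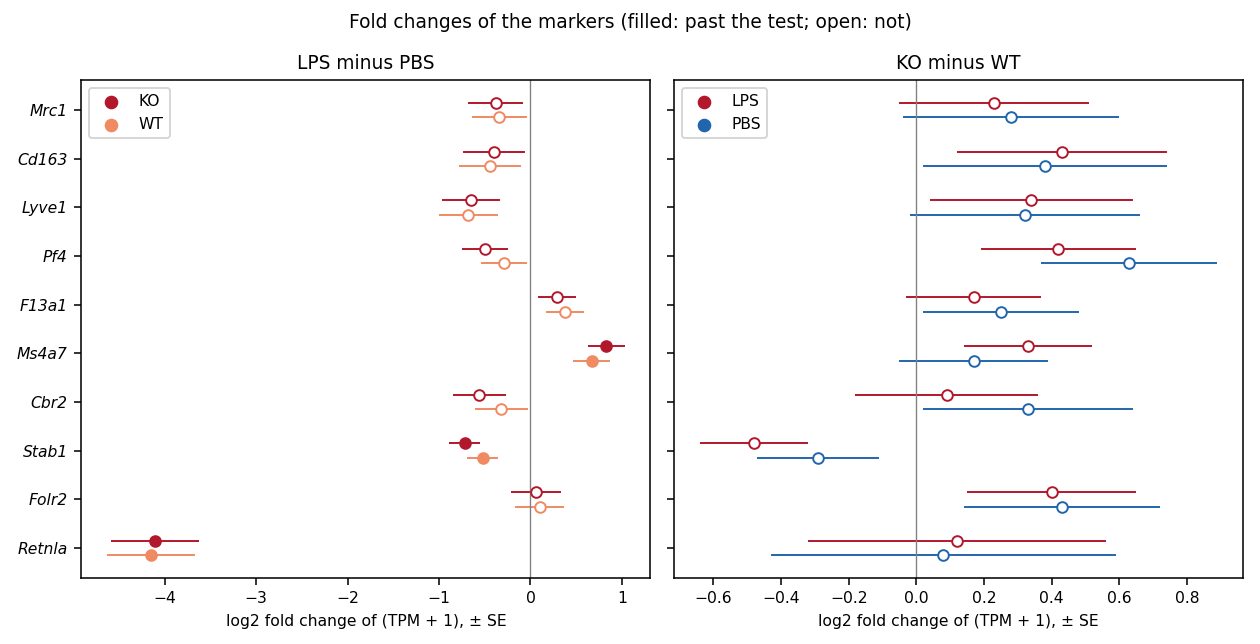
Log2 fold changes of TPM + 1 with SE (horizontal axes) for the 10 markers, LPS minus PBS on the left (KO above WT) and KO minus WT on the right (LPS above PBS), with filled points for those past the limma test. Retnla, at -4.11 in KO and -4.15 in WT, stands far from the others, and no KO minus WT point is filled.

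Markers of other cells that could carry these genes moved with treatment. Of 14 monocyte genes, 12 rose under LPS in KO and 12 in WT, among them Treml4 (5.37 in KO, 4.45 in WT) and F10, the gene of a coagulation factor (4.65 in KO, 4.15 in WT). Among all tested genes, 7.82% rose in KO and 7.95% in WT. F13a1 and Ms4a7 are also made by monocytes and macrophages derived from them. The monocyte list summed to 2496 to 3267 TPM in KO LPS, 2572 to 3435 TPM in WT LPS, 623.6 to 987.9 TPM in KO PBS and 1010 to 1621 TPM in WT PBS libraries. Of 7 choroid plexus genes, 6 fell in KO and 7 in WT, against 26.9% and 34.1% of all tested genes. They summed to 3976 to 14590 TPM in KO LPS, 2291 to 8849 TPM in WT LPS, 10910 to 25960 TPM in KO PBS and 16550 to 21570 TPM in WT PBS libraries. In KO the call of Ttr ended in 6 of 13 other settings and 6 of 14 fits with a single library left out. That of Folr1 ended in 5 of 13 and 5 of 14, while Kl kept its call in all of them. The 12 microglial genes all fell in KO and 10 fell in WT, beside the same 26.9% and 34.1% of all tested genes. The part of these cells in the marker differences was not tested.

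Pf4 is abundant in platelets and Lyve1 in lymphatic endothelium. Of 10 platelet and megakaryocyte genes, Gp1bb was at 0 in all libraries, Gp5 and Gp6 stayed under 1 TPM, and the list summed to 26.62 to 42.39 TPM in KO LPS, 33.01 to 47.31 TPM in WT LPS, 67.6 to 85.9 TPM in KO PBS and 66.23 to 72.83 TPM in WT PBS libraries. Gp9, a platelet glycoprotein gene, fell by 1.70 in KO (limma, adjusted p = 2.24e-05) and fell by 1.41 in WT (limma, adjusted p = 0.000106). It was the 1 gene called among the 5 tested, against 34.7% of all tested genes in KO and 42.0% in WT. Gp9 made up most of the sums under PBS, with a mean of 17.95 TPM in KO LPS, 18.58 TPM in WT LPS, 59.81 TPM in KO PBS and 50.87 TPM in WT PBS libraries. Tubb1, a platelet tubulin gene, had positive, uncalled differences of 0.39 in KO (limma, adjusted p = 0.442) and 0.60 in WT (limma, adjusted p = 0.208).

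Of 5 lymphatic endothelial genes, Ccl21a was at 0 in all libraries and 3 were tested. The list summed to 21.48 to 40.15 TPM in KO LPS, 19.52 to 31.74 TPM in WT LPS, 34.38 to 51.07 TPM in KO PBS and 52.55 to 57.23 TPM in WT PBS libraries, while Lyve1 alone reached 173.5 TPM. The WT sums under LPS thus all lay below those under PBS, and those in KO overlapped. In WT, Prox1, a transcription factor gene of lymphatic endothelium, fell by 0.88 (limma, adjusted p = 0.00135) and Pdpn, the gene of podoplanin, fell by 1.16 (limma, adjusted p = 0.011), the same direction as the uncalled Lyve1 difference. In KO neither passed, at -0.43 for Prox1 (limma, adjusted p = 0.0579) and -0.66 for Pdpn (limma, adjusted p = 0.125). Flt4, the other tested gene, was uncalled, at -0.32 in WT (limma, adjusted p = 0.515) and 0.54 in KO (limma, adjusted p = 0.29). Its sign in KO was opposite to that of Lyve1. The Pdpn call in WT ended under median-of-ratios scaling (-0.84; limma, adjusted p = 0.0758) and quantile normalisation (-0.88; limma, adjusted p = 0.0578). Prox1 was also lower in KO than in WT under PBS, at -0.91 (limma, adjusted p = 0.0378). That call ended with any single PBS library left out, at -0.80 to -1.01 (limma, adjusted p = 0.0573 to 0.131), and without WT LPS library 1 or 2, at -0.91 (limma, adjusted p = 0.053 and 0.0505). The part of lymphatic endothelium in the Lyve1 values was not tested.

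Relative levels among the markers were then set against Mrc1 within each library, a ratio that does not depend on how a library is scaled. This measure was chosen after the values had been seen. The ratio of Retnla to Mrc1 was 0.00247 to 0.0137 in KO LPS and 0.111 to 0.139 in KO PBS libraries, and 0 to 0.0128 in WT LPS and 0.113 to 0.181 in WT PBS libraries. Every LPS library was below every PBS library, as for 3.18% of tested genes in KO and 8.17% in WT. Ms4a7 per Mrc1 was 0.102 to 0.16 in KO LPS and 0.0427 to 0.0558 in KO PBS libraries, and 0.0877 to 0.15 in WT LPS and 0.0413 to 0.0777 in WT PBS libraries. F13a1 per Mrc1 was 0.706 to 0.804 in KO LPS and 0.453 to 0.489 in KO PBS libraries, and 0.711 to 1.01 in WT LPS and 0.359 to 0.696 in WT PBS libraries. Both were higher under LPS without overlap in both genotypes, as 12.3% of tested genes were in KO and 4.83% in WT. Per Mrc1, Cd163, Pf4, Cbr2 and Folr2 overlapped between treatments in both genotypes, while Lyve1 was lower without overlap in WT (0.311 to 0.388 under LPS, 0.412 to 0.498 under PBS) and overlapped in KO. Stab1 per Mrc1 was lower without overlap in KO (1.00 to 1.25 under LPS, 1.28 to 1.58 under PBS) and overlapped in WT.

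**Figure D3:**
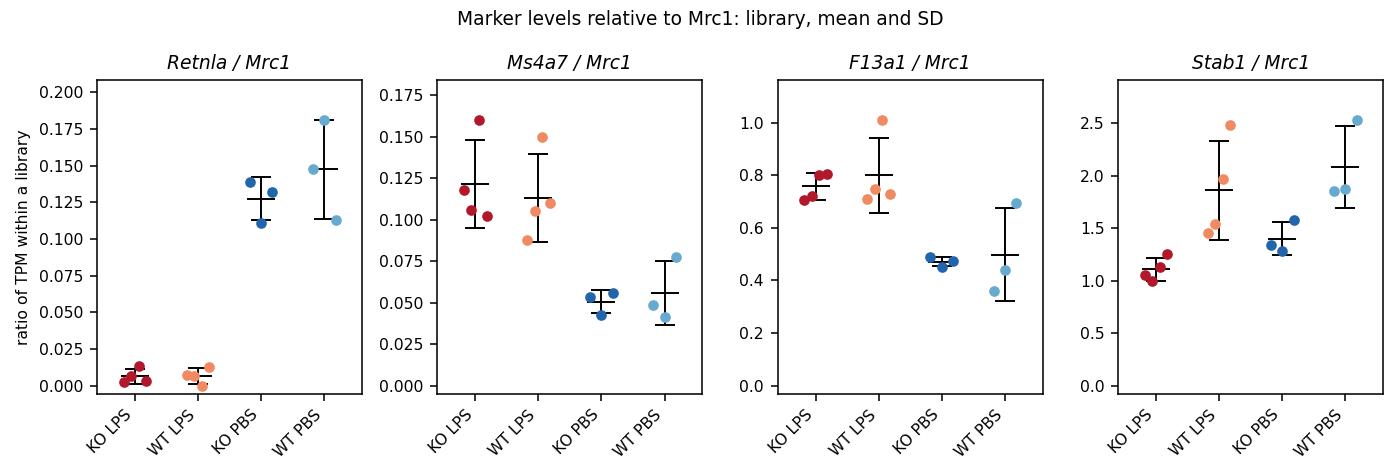
Ratio of the TPM of Retnla, Ms4a7, F13a1 and Stab1 to that of Mrc1 in the same library (vertical axes, linear) in the 4 groups, with a point per library and bars for the mean and SD. Retnla is low and Ms4a7 and F13a1 are high in LPS libraries, and Stab1 is low in KO libraries, at 1.00 to 1.25 in KO LPS and 1.45 to 2.48 in WT LPS.

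The second comparison, the one the study was built on, was KO against WT. No marker passed the test. Under LPS 0 of 10 were called, against 0.497% of all tested genes, and under PBS 0 of 10, against 1.02%. The voom fit on recovered reads also called 0 in both treatments. Before adjustment, 1 marker stood below 0.05 in each treatment by limma's p-value, Stab1 under LPS at 0.00887 and Pf4 under PBS at 0.0335. Of all 18724 tested genes, 2183 stood below 0.05 under LPS and 2935 under PBS, so 1 of 10 markers is no excess. Signs were mostly positive: 9 of 10 log2 differences were above 0 under LPS (median 0.28, all tested genes 0.07) and 9 of 10 under PBS (median 0.30, all tested genes 0.0). Under PBS this rested on library WT914, without which 4 of 10 were above 0 and the median was -0.02. Under LPS 8 of 10 were above 0 with median-of-ratios scaling. The 10 markers varied together from library to library, as described below, so their signs are not 10 separate results.

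Stab1 was the exception in both treatments. Under LPS its TPM, given above, was lower in every KO library than in every WT library, with a mean of 265.9 ± 33.05 TPM in KO and 371.6 ± 43.38 TPM in WT (SD, n = 4 each). The log2 difference was -0.48 ± 0.16 (SE; limma, p = 0.00887, adjusted p = 0.223), and the exact permutation p was 0.029, the smallest that 4 against 4 libraries can give. A fall without overlap was found in 1.96% of tested genes. Under PBS Stab1 averaged 436.7 ± 33.65 TPM in KO and 547.5 ± 150.0 TPM in WT libraries (SD, n = 3 each), with overlapping ranges and a log2 difference of -0.29 ± 0.18 (SE; limma, adjusted p = 0.463). Microglial genes, which are listed here with Stab1 because they ran the same way under LPS, summed to 12980 to 17910 TPM in KO LPS and 17710 to 22500 TPM in WT LPS libraries, with overlap. All 12 had negative differences, but only Tmem119, the gene named in the Cre allele, and Fcrls were called. These were at -1.04 (limma, adjusted p = 0.00857) and -0.75 (limma, adjusted p = 0.0281). Both calls ended with the LPS libraries fitted alone (limma, adjusted p = 0.083 for Tmem119 and 0.104 for Fcrls), a fit that called 0 of all tested genes. Of 13 other settings, 12 kept the Tmem119 call and 9 the Fcrls call. Of 14 fits with a single library left out, 14 kept the Tmem119 call and 5 the Fcrls call. Under PBS the 12 microglial genes summed to 30090 to 31780 TPM in KO and 27520 to 35160 TPM in WT. They went both ways there, with Tmem119 called lower at -0.70 and Olfml3 called higher at 0.70 (limma, adjusted p = 0.0389 for each). These 2 PBS calls ended with the PBS libraries fitted alone (limma, adjusted p = 0.0697 for Tmem119 and 0.0583 for Olfml3). The part of microglia in the Stab1 values was not tested.

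Relative to Mrc1, Stab1 was lower in KO than in WT in both treatments without overlap. The ratio was 1.00 to 1.25 in KO LPS and 1.45 to 2.48 in WT LPS libraries (exact permutation p = 0.029, adjusted p = 0.228 over 36 ratios), and 1.28 to 1.58 in KO PBS and 1.85 to 2.53 in WT PBS libraries (exact permutation p = 0.1, the smallest possible, adjusted p = 0.36). A ratio lower without overlap was found for 0.94% of tested genes under LPS and 8.46% under PBS. No other marker's ratio to Mrc1 separated KO from WT in either treatment. None of the 36 ratios passed after adjustment, with a smallest adjusted p of 0.228 (exact permutation). None could have passed, even with every ratio free of overlap, because the smallest p-values of these group sizes stay too large after adjustment. The adjusted values therefore cannot decide whether any ratio differed.

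Pf4 had the largest positive KO difference under PBS among the 10. It had 177.4, 154.4 and 145.5 TPM in KO PBS libraries, against 109.5, 137.7 and 71.1 TPM in WT PBS libraries. All KO values were above all WT values, as for 14.9% of tested genes, with a difference of 0.63 ± 0.26 (SE; limma, adjusted p = 0.28). Without library WT914 the difference was 0.37 (limma, adjusted p = 0.575). Under LPS Pf4 had 138.5, 144.1, 102.1 and 77.2 TPM in KO, against 110.7, 83.7, 79.6 and 66.1 TPM in WT, with overlap and a difference of 0.42 ± 0.23 (SE; limma, adjusted p = 0.516). The Retnla difference was 0.12 ± 0.44 under LPS (SE; limma, adjusted p = 0.948) and 0.08 ± 0.51 under PBS (SE; limma, adjusted p = 0.961), errors too wide to show equal levels.

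Whether LPS acted differently in KO and WT was tested as an interaction. None of the 10 markers passed (limma, adjusted p of at least 0.813), and 0 of 18724 genes did (0.0%), with 1780 genes at an unadjusted p under 0.05. The interaction term of Retnla was 0.04 ± 0.67 (SE) and that of Stab1 was -0.20 ± 0.24 (SE) on the log2 scale.

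Within groups the markers varied together from library to library. After each gene's group means were subtracted from its log2(TPM + 1), all 45 pairs of markers had a positive Pearson's r over the 14 libraries, with a median of 0.72, and 17 pairs reached 0.8. These values share library and scaling and are given as a description. Mrc1 followed the mean of the other 9 most closely (r = 0.97), then Cbr2 (0.96), Lyve1 (0.95), Pf4 (0.92), Cd163 (0.91) and Stab1 (0.86). Looser were F13a1 (0.73), Ms4a7 (0.64), Retnla (0.61) and Folr2 (0.55). All 10 markers lay below their group mean in library WT914, library KO915 and KO LPS library 4, and all 10 lay above it in KO LPS library 2 and WT LPS library 1. The median deviation was -0.59 in library WT914 and 0.43 in WT LPS library 1. The summed choroid plexus genes, treated the same way, had r = 0.69 with the markers, the dendritic cell genes 0.55, the other border macrophage genes 0.54, the microglial genes 0.22 and the neutrophil genes -0.58.

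**Figure D4:**
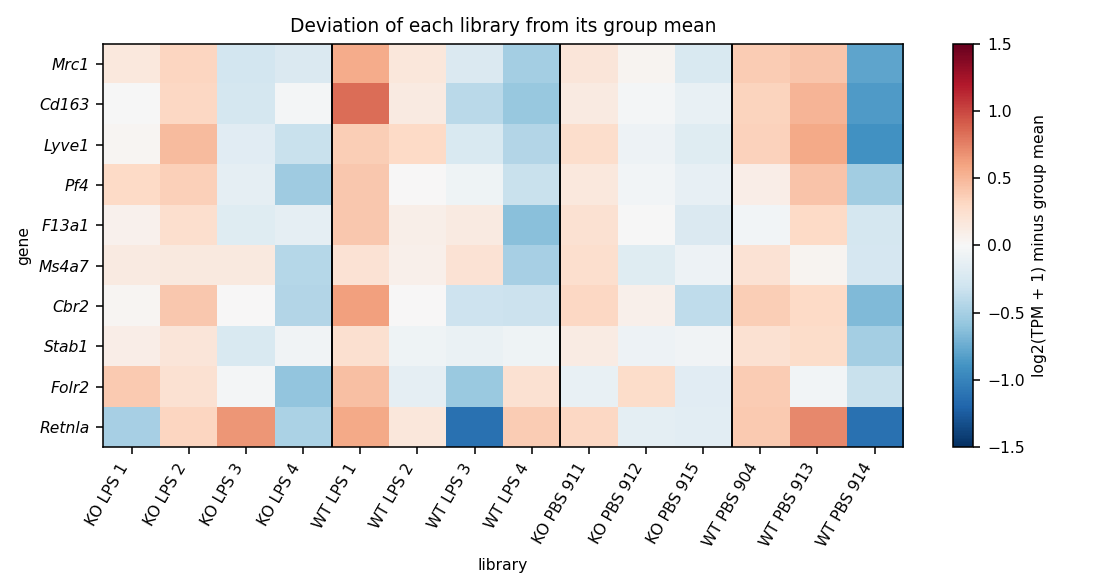
Log2(TPM + 1) of each marker (rows) in each library (columns, grouped KO LPS, WT LPS, KO PBS, WT PBS, with black lines between groups) minus its group mean, red above and blue below. Library WT914 is blue throughout (median -0.59) and WT LPS library 1 red throughout (median 0.43).

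Among other tested genes averaging 5 TPM or more, the 6 with deviations most like the markers over the 14 libraries were Adam33 (r = 0.956), Idh2 (0.932), Sdhc (0.925), Dab2 (0.918), Pnpla2 (0.911) and Oxa1l (0.91). Dab2, which encodes an adaptor for endocytosis, is also in the list of other border macrophage genes. Dab2 rose under LPS in WT by 0.57 (limma, adjusted p = 0.027) and had an uncalled difference of 0.33 in KO (limma, adjusted p = 0.202).

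A wider list of 31 other border macrophage genes gave the setting for these markers. None was called between KO and WT, where only 0.497% of all tested genes were called under LPS and 1.02% under PBS. For LPS against PBS in KO, 10 rose and 5 fell, against 7.82% and 26.9% of all tested genes. In WT 11 rose and 7 fell, against 7.95% and 34.1%. The 9 that rose in both genotypes are 9 of 10 in KO and 9 of 11 in WT, and the 5 that fell in both are 5 of 5 in KO and 5 of 7 in WT. Wfdc17, a small secreted protein gene, averaged 617.2 TPM in KO LPS and 76.85 TPM in KO PBS libraries, and 714.1 TPM in WT LPS and 78.72 TPM in WT PBS libraries, a rise of 2.97 ± 0.23 in KO and 3.12 ± 0.23 in WT on the log2 scale (SE). Cd38, an enzyme that consumes NAD, rose by 2.74 ± 0.22 in KO and 2.68 ± 0.22 in WT (SE). Mgl2, a C-type lectin gene linked to IL-4 responses, averaged 10.1 TPM in KO LPS and 84.85 TPM in KO PBS libraries, and 9.589 TPM in WT LPS and 65.84 TPM in WT PBS libraries. It fell by 3.0 ± 0.30 in KO (SE; limma, adjusted p = 2.24e-05) and fell by 2.64 ± 0.30 in WT (SE; limma, adjusted p = 7.64e-05). Ccl24, a chemokine that attracts eosinophils, fell by 2.10 ± 0.31 in KO (SE; limma, adjusted p = 0.000287) and fell by 1.24 ± 0.31 in WT (SE; limma, adjusted p = 0.00669). Cd209d, a lectin gene at low levels, fell by 1.33 ± 0.40 in WT (SE; limma, adjusted p = 0.0188) and had an uncalled difference of -0.94 ± 0.40 in KO (SE; limma, adjusted p = 0.0866).

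**Figure D5:**
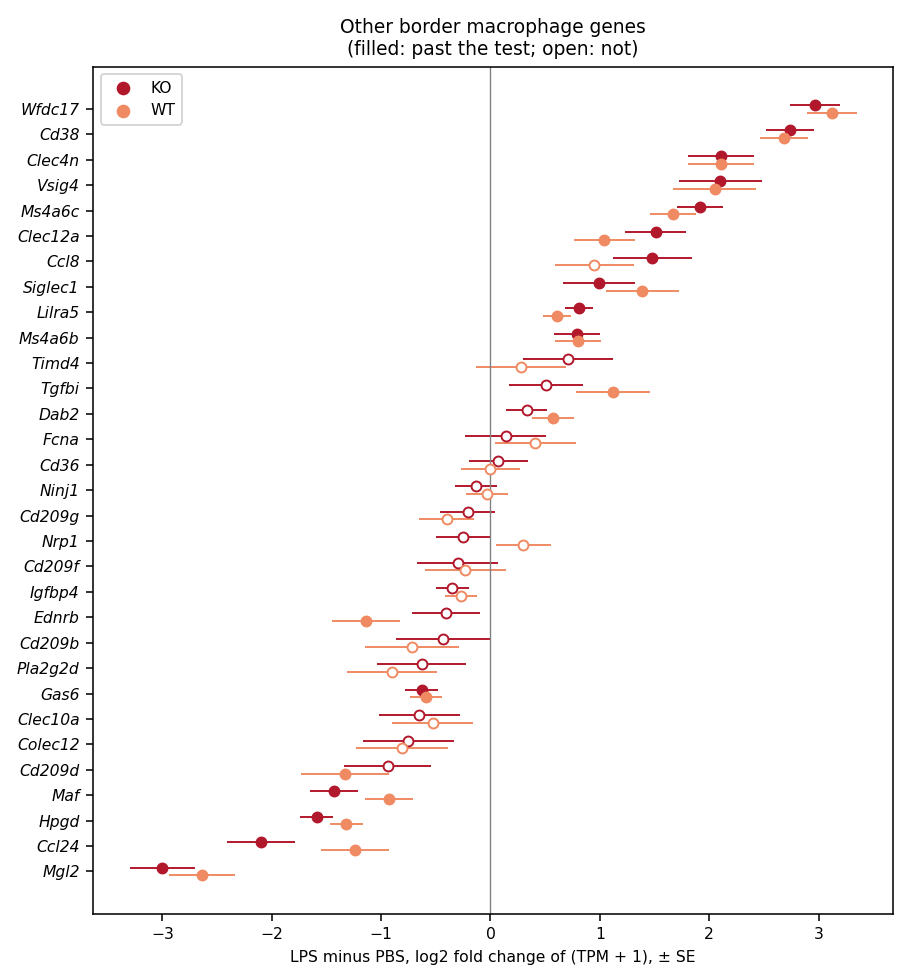
Log2 fold change of TPM + 1 with SE, LPS minus PBS (horizontal axis), for 31 other border macrophage genes (rows), in KO (dark red, upper point of each row) and WT (orange, lower point), filled where past the limma test. Wfdc17 lies highest, at 2.97 in KO and 3.12 in WT, and Mgl2 lowest, at -3.0 in KO and -2.64 in WT.

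Retnla belongs to the genes of alternative activation, the IL-4 and IL-13 programme of macrophages. Of 13 other tested genes of that list, 5 rose and 4 fell in KO, against 7.82% and 26.9% of all tested genes. In WT 5 rose and 4 fell, against 7.95% and 34.1%. Il10, an anti-inflammatory cytokine gene, rose by 3.30 ± 0.30 in KO and 3.01 ± 0.30 in WT (SE; limma, adjusted p = 1.14e-05 in KO and 2.56e-05 in WT), and Pdcd1lg2, the gene of PD-L2, by 2.14 ± 0.38 in KO and 2.29 ± 0.38 in WT (SE; limma, adjusted p = 0.00106 in KO and 0.000753 in WT). The chemokine gene Ccl17 fell by 1.97 ± 0.43 in KO and by 1.83 ± 0.43 in WT (SE; limma, adjusted p = 0.00383 in KO and 0.00517 in WT). Irf4, a transcription factor of the IL-4 response, fell by 1.08 ± 0.28 in KO (SE; limma, adjusted p = 0.00911) and fell by 1.04 ± 0.28 in WT (SE; limma, adjusted p = 0.00995). Il4 fell by 1.07 ± 0.27 in WT (SE; limma, adjusted p = 0.00787) and had an uncalled difference of -0.11 ± 0.27 in KO (SE; limma, adjusted p = 0.786). Il4ra, Chil3 and Pparg also rose, by 1.42, 2.04 and 1.86 in KO and by 2.27, 1.29 and 1.34 in WT. Arg1 had positive, uncalled differences of 2.10 in KO and 2.37 in WT. Stat6 fell by 0.31 in KO and was uncalled in WT, at 0.03. Il10ra fell by 0.74 in KO and by 0.49 in WT. Members of the list thus went both ways under LPS. None was called between KO and WT, where 0.497% of all tested genes were called under LPS and 1.02% under PBS.

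Border macrophages with MHC class II form a known second subset, and its genes also went both ways. Of 8 such genes, 2 rose and 4 fell in KO, against 7.82% and 26.9% of all tested genes. In WT 2 rose and 5 fell, against 7.95% and 34.1%. H2-Eb1, an MHC class II chain, averaged 162.6 TPM in KO LPS and 327.1 TPM in KO PBS libraries, and 117.2 TPM in WT LPS and 326.0 TPM in WT PBS libraries. It fell by 1.13 ± 0.35 in KO (SE; limma, adjusted p = 0.0258) and by 1.5 ± 0.35 in WT (SE; limma, adjusted p = 0.00512). Ccr2, a chemokine receptor also carried by monocytes, and Klra2 were the 2 that rose in both genotypes. Klra2 rose by 2.21 ± 0.27 in KO and 2.19 ± 0.27 in WT (SE). The H2-Eb1 call in KO ended in 2 of 13 other settings, among them median-of-ratios scaling (-0.86; limma, adjusted p = 0.0742), and in 4 of 14 fits with a single library left out. The Ccr2 call in WT ended in 1 of 13 other settings and 4 of 14 such fits, among them without WT913 (0.73; limma, adjusted p = 0.0971). In KO the Ccr2 call ended in 2 of 13 and 5 of 14, among them without KO915 (0.73; limma, adjusted p = 0.116).

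Cd163 works beside a set of genes for haemoglobin and haem. Of 11 of these, 4 rose and 2 fell in KO, against 7.82% and 26.9% of all tested genes. In WT 5 rose and 3 fell, against 7.95% and 34.1%. Hp, the gene of haptoglobin, which binds free haemoglobin, rose by 3.66 ± 0.40 in KO and 2.94 ± 0.40 in WT (SE), and Hmox1, which breaks down haem, by 1.95 ± 0.24 in KO and 2.0 ± 0.24 in WT (SE). Lrp1, a receptor that takes up haem bound to haemopexin, fell by 1.03 ± 0.09 in KO and by 0.60 ± 0.09 in WT (SE), and Slc40a1, the iron exporter, by 0.79 ± 0.19 in KO and by 0.63 ± 0.19 in WT (SE). Under median-of-ratios scaling the WT differences no longer passed, at -0.26 for Lrp1 (limma, adjusted p = 0.0688) and -0.30 for Slc40a1 (limma, adjusted p = 0.177). Cd163 itself, with 129.1, 161.1, 107.6 and 127.3 TPM in KO LPS against 189.1, 169.0 and 159.1 TPM in KO PBS libraries, and 173.2, 106.2, 72.4 and 64.7 TPM in WT LPS against 166.6, 187.4 and 72.8 TPM in WT PBS libraries, overlapped in both genotypes.

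Relatives of the markers, genes of the same families or of related function, were also set beside them. Of 21 relatives in the table, 14 were tested. In KO 8 were higher and 3 lower, against 7.82% and 26.9% of all tested genes. In WT 6 were higher and 4 lower, against 7.95% and 34.1%. Cd5l, a secreted relative of Cd163 in the scavenger receptor cysteine-rich family, averaged 162.7 ± 59.88 TPM in KO LPS and 0.8854 ± 0.7446 TPM in KO PBS libraries (SD, n = 4 and n = 3), and 121.0 ± 71.69 TPM in WT LPS and 0.9506 ± 1.155 TPM in WT PBS libraries (SD, n = 4 and n = 3). It rose by 6.44 ± 0.46 in KO (SE; limma, adjusted p = 1.64e-06) and by 5.95 ± 0.46 in WT (SE; limma, adjusted p = 3.86e-06). Ms4a4c, of the same family as Ms4a7, rose by 2.92 ± 0.37 in KO and 2.69 ± 0.37 in WT (SE). Folr1, the other folate receptor and a choroid plexus gene, fell by 1.31 ± 0.43 in KO and by 1.99 ± 0.43 in WT (SE), beside a Folr2 that did not pass. Mrc2, the second mannose receptor gene, fell by 0.87 ± 0.24 in KO and by 0.76 ± 0.24 in WT (SE), and Retnlb was at 0 in all libraries. Median-of-ratios scaling ended the Mrc2 calls, at -0.61 in KO (limma, adjusted p = 0.109) and -0.43 in WT (limma, adjusted p = 0.229), and the Folr1 call in KO, at -1.05 (limma, adjusted p = 0.102).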

How the data were processed

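Total RNA of bead-purified brain cells was sequenced in 14 libraries. The submitters' processing notes list featureCounts 2.0.1, STAR 2.7.10b, cutadapt 4.4 and FastQC 0.11.9, and name the human build hg38 although the IDs are those of mouse genes. Gene-level TPM were deposited by the authors, and strand is not stated. Symbols were found for 41588 of 41739 IDs. Reads were estimated from TPM times exon-union gene length (GENCODE M21). Between 98.4% and 98.55% of values came out whole within 0.02 reads.

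Log2(TPM + 1) was fitted with limma 3.58.1 in R 4.3.3 (4 group means, intensity trend, Benjamini-Hochberg adjustment over the 18724 genes that reached 1 TPM in 3 or more libraries). Genes with an adjusted p below 0.05 were called, and rose or fell refers to these. Fold changes on this scale understate those of low genes. Permutation tests were exact and two-sided. Scripts were tested on simulated data.

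The markers and gene lists were chosen with earlier results of these data known. Named were all 10 markers, up to 2 called genes per direction and comparison of each other list with the largest fold changes, the 6 genes most like the markers, and Rheb, Tmem119, Xist, Ddx3y, Gh and Gm23935 as checks, and the text gives part of these. Tubb1, Flt4, Il4ra, Chil3, Pparg, Arg1, Stat6 and Il10ra were named as well, to show more of their lists. Whether replicate numbers pair the LPS libraries is not stated in the labels, and the main fit did not pair them. Other settings were pseudocounts, filters, scalings, variance options, voom, a replicate block and libraries left out.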

Additional observations from a re-analysis of the deposited data

Results flagged for a closer look

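In 20 sets of 4 LPS libraries (10 markers in each of 2 genotypes), 2 had a library far from its neighbours by Dixon's test, where chance flags about 1 in 20. Ms4a7 lay at 21.0 TPM in KO LPS library 4, the shallowest library, while the other 3 KO LPS libraries held 31.68 to 31.98 TPM. Stab1 lay at 436 TPM in WT LPS library 1, the deepest library, while the other 3 WT LPS libraries held 344.6 to 353.2 TPM. Both libraries had all 10 markers on the same side of their group means.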

How the results depend on the processing

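No marker was called between KO and WT, or for the interaction, under any of the other settings or with any single library left out. The falls of Retnla under LPS kept their call in both genotypes under all of these. The count of markers called for LPS against PBS in WT was 5 without the 2 pituitary-rich libraries, 2 with Gm23935 removed, 2 with the compared groups alone in the fit and 2 to 5 with single libraries left out, against 3. In KO it was 5 with the compared groups alone, 2 under median-of-ratios scaling and 3 to 4 with single libraries left out, against 3. Under the replicate block these counts stayed at 3 in KO and 3 in WT. No marker was called between KO and WT under it, though all genes called between them numbered 23 under LPS and 49 under PBS. Same-numbered LPS libraries had deviations with r of -0.09 to 0.06, and differently numbered ones with r of -0.09 to 0.09. These values cannot settle whether the numbers pair the libraries, which the labels do not state. Uncalled signs turned for KO minus WT under PBS without the pituitary-rich libraries (Mrc1 -0.12, Cd163 -0.04, Lyve1 -0.14, Cbr2 0.0, Retnla -0.48), with ranges over single libraries left out of -0.12 to 0.49 for Mrc1, -0.04 to 0.64 for Cd163, -0.14 to 0.60 for Lyve1, 0.0 to 0.52 for Cbr2 and -0.48 to 0.44 for Retnla. For KO minus WT under LPS, Cbr2 was 0.0 under median-of-ratios scaling (single libraries left out, -0.05 to 0.29), Retnla was -0.10 without the pituitary-rich libraries (-0.25 to 0.31), and F13a1 ranged from -0.04 to 0.30. For LPS minus PBS in WT, median-of-ratios scaling gave 0.05 for Pf4 and 0.02 for Cbr2, and Folr2 was -0.07 without the pituitary-rich libraries (-0.07 to 0.28). In KO, Folr2 ranged from -0.07 to 0.26. The cause of these changes was not tested. Of the 31 other border macrophage genes, the other settings, with all libraries or without the 2 pituitary-rich ones, called 9 to 11 higher and 4 to 6 lower in KO and 9 to 12 higher and 6 to 7 lower in WT. All genes called between KO and WT ranged from 0 to 314 under LPS, against 93, and from 8 (without KO911) to 387 under PBS, against 191, single libraries left out included. In KO, 4251 to 6650 genes were called for LPS against PBS, against 6494, and for the interaction 0 to 3. Depth limited Retnla, with 0 to 13 reads per LPS library. Permutation tests could not go below 0.1, 0.057 or 0.029 with 3 against 3, 4 against 3 or 4 against 4 libraries.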
